A study of Mus musculus with 12 samples.

Results

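The apoptosis targets of the transcription factor p53 described here are 7 genes, Eda2r, Tnfrsf10b, Bax, Bbc3, Aen, Phlda3 and Perp. They were looked up by name among the 55903 genes of the deposited table. The 7 were chosen with earlier results of these data known, so their counts and p-values below are descriptive. All 7 were found, each in 1 row. Liver RNA of mice had been sequenced in 12 libraries, with 4 in each of 3 groups. The doxo-KSL0608-Se group is titled as treated with KSL0608-Se, a compound known here by its code only. The doxo group is called doxo in its description but an aged control in its titles, and its condition tag reads aged. The control group is titled young control. Whether age, doxo or both separate the doxo group from control liver is not settled by the labels, and doxo is not spelled out in them. The strain, doses, times and sex are not given in the labels. The labels do not tie libraries to animals. The p-values below therefore cover only the spread among these libraries, which may be technical. The question is how strongly each death target of p53 differed between doxo and control liver, and whether it differed after KSL0608-Se.

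The tumour suppressor p53 is a transcription factor that is stabilised when DNA is damaged and that switches on genes for cell-cycle arrest, repair and cell death. Its death-related targets act at several places: receptors at the cell surface that can recruit caspases, BCL2-family proteins that open the outer mitochondrial membrane, nucleases that cut nucleic acid, and inhibitors of the survival kinase Akt. Doxorubicin, which doxo often abbreviates, damages DNA, and in liver p53 targets serve as readouts of such damage.

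The values are TPM, transcript abundances scaled to gene length and to a fixed library total, so levels of different genes can be set side by side. Sequencing depth behind them is unknown. The 10 hepatocyte markers summed to between 70491 and 84557 TPM in doxo-KSL0608-Se, 44962 and 83335 TPM in doxo and 53204 and 79485 TPM in control libraries, so the tissue label fits its markers. Of 9 marker lists for liver cell types, 1 had summed levels that separated a doxo-labelled group from control liver. Neutrophil markers summed to between 3.95 and 4.43 TPM in doxo-KSL0608-Se and between 4.66 and 6.89 TPM in control libraries, with Ly6g and Mpo averaging 0.011 and 0.092 TPM. The erythroid markers lay at 846 to 1778 TPM in doxo-KSL0608-Se and at 1839 to 2568 TPM in doxo libraries, which did not overlap; control libraries lay at 836 to 1991 TPM. The part of these cells in the results below was not tested. Control library 1 and doxo library 2 stood apart from the rest on the first principal component, at -61.7 and -95.6, while the other 10 libraries lay between -21.4 and 39.8. Without both, the log2 differences of doxo from control liver were 2.06 for Phlda3, 0.93 for Aen, 0.73 for Bax, 0.44 for Eda2r and 0.24 for Tnfrsf10b, against 1.86, 0.84, 0.70, 0.39 and 0.27 with them.

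By separation of the libraries, 5 of the 7 genes (Phlda3, Aen, Bax, Eda2r and Tnfrsf10b) were higher in every doxo library than in every control library, and 0 were lower throughout. Among all 25019 genes with any TPM above 0, 1.05% were higher throughout and 0.232% lower throughout. Against control liver, 4 of the 7 (all of these but Bax) were higher in every doxo-KSL0608-Se library, where 2.42% of all genes were higher and 0.32% lower. The same 4 were higher in all 8 doxo-labelled libraries than in control liver, where 0.212% of all genes were higher and 0.044% lower. Between doxo-KSL0608-Se and doxo liver 0 of the 7 were separated in either direction, where 1.53% of all genes were higher throughout and 0.624% lower throughout. The comparisons with control liver share its 4 libraries, and the doxo libraries are shared too, so these counts are not independent. Since the 7 genes were chosen with earlier results of these data known, setting them beside all genes is not a test. In bulk liver, fewer cells of a type and less RNA per cell cannot be told apart, so a difference may lie in either.

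**Figure D1:**
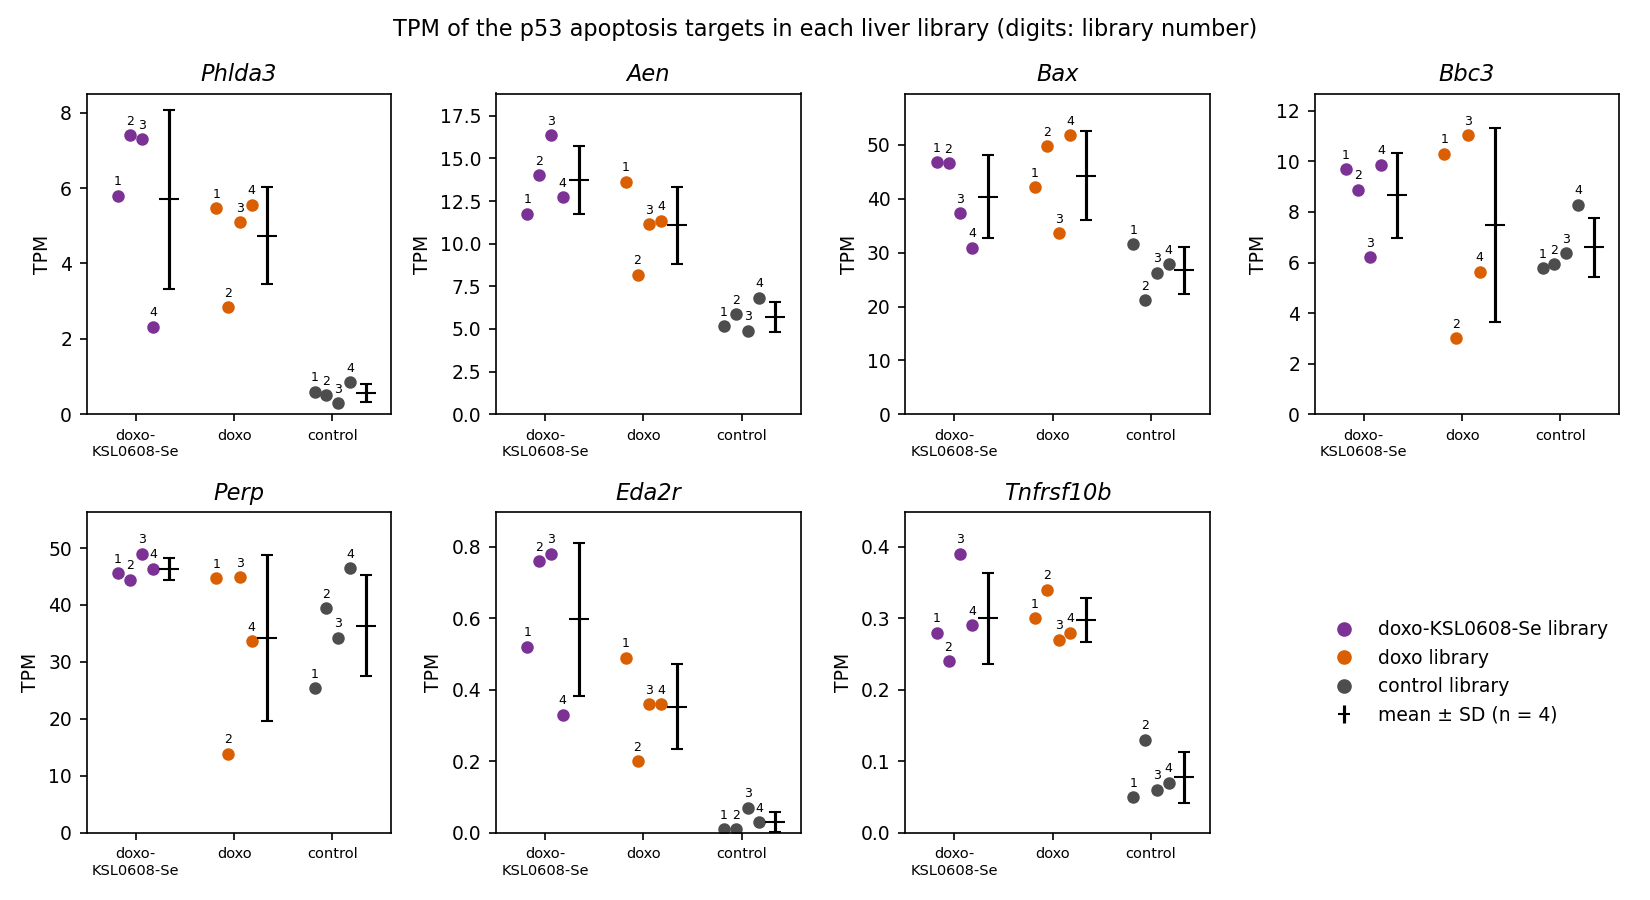
TPM of the 7 genes (y axis, from 0) in each library of the doxo-KSL0608-Se, doxo and control groups, with the library number beside each point and the mean ± SD (n = 4) as a bar. Phlda3, Aen, Bax, Eda2r and Tnfrsf10b show no overlap between doxo and control libraries, while Bbc3 and Perp do.

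The sequence before the starts of the 7 genes was read where a window was at hand, whether or not a gene was separated in doxo liver. The table names no build, so gene identifiers were looked up in GENCODE M21 (GRCm38), where all 7 are protein-coding genes. Chromosome 7 carries Bbc3 (ENSMUSG00000002083, 16308393 to 16318205, plus strand), Bax (ENSMUSG00000003873, 45461697 to 45466898, minus strand) and Aen (ENSMUSG00000030609, 78895854 to 78911209, plus strand). Phlda3 (ENSMUSG00000041801) spans 135766119 to 135769136 of chromosome 1 and Perp (ENSMUSG00000019851) 18845020 to 18857073 of chromosome 10, both on the plus strand. Eda2r (ENSMUSG00000034457) spans 97333840 to 97377216 of chromosome X on the minus strand, and Tnfrsf10b (ENSMUSG00000022074) spans 69767472 to 69784411 of chromosome 14 on the plus strand. RefSeq windows on GRCm38.p6 matched 5 of the 7 genes. The 250 bases before each start were searched for exact copies of the p53 decamer, the palindromic unit of the p53 response element, which reads the same on either strand. Copies were found in 2 of the 8 windows of these genes, for Bax and for Aen, and in 7.13% of all 32851 windows. None was found for Phlda3, Eda2r or Bbc3, which says only that an exact copy is not in those bases. A copy is a description of letters, and p53 binding was not measured here.

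The decamer is in capitals below. For Bax the window is chr7:45466899-45467148 on the minus strand, with the copy 201 bases before the start. For Aen a stretch of 30 bases is given, chr7:78895927-78895956 on the plus strand, whose copy lies 121 bases before a RefSeq start and inside bases that GENCODE M21 annotates as exon and UTR of Aen. The windows of Phlda3 (chr1:135765835-135766084, plus strand) and Eda2r (chrX:97377210-97377459, minus strand) are shown beside them because these genes had the largest ratios to control liver.
Bax: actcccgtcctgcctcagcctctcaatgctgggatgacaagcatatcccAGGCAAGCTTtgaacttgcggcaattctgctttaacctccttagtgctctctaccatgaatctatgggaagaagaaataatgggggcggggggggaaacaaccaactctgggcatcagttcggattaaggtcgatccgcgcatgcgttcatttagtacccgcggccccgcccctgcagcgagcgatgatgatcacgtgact
Aen: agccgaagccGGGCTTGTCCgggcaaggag
Phlda3: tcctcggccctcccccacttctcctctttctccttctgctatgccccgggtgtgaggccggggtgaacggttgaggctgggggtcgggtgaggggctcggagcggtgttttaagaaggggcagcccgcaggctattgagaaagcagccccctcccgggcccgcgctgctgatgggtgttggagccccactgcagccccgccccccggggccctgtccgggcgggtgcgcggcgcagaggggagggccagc
Eda2r: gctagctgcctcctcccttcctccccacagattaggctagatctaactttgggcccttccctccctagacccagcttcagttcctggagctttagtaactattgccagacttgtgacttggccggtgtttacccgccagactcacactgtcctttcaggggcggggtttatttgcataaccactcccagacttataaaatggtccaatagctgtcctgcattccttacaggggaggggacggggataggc

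Across genes, levels spanned a wide range. Perp and Bax were the most abundant at 46.3 ± 1.94 and 40.4 ± 7.74 TPM in doxo-KSL0608-Se, 34.3 ± 14.6 and 44.3 ± 8.23 TPM in doxo and 36.4 ± 8.88 and 26.7 ± 4.32 TPM in control liver (SD, n = 4 each). Perp came first in doxo-KSL0608-Se and control liver and Bax in doxo liver, but libraries of these genes overlapped in every group. Aen and Bbc3 came next, with Aen above Bbc3 in doxo-KSL0608-Se and doxo liver and the order turned round in control liver, where they averaged 5.69 ± 0.865 and 6.59 ± 1.16 TPM. Aen and Bbc3 did not overlap in doxo-KSL0608-Se liver and overlapped in the other groups. Phlda3 stood 5th in every group. Eda2r and Tnfrsf10b were lowest and under 1 TPM in every library, and overlapped with each other in every group.

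A gene entered the main test with a mean of at least 1 TPM over the 12 libraries. This held for 5 of the 7 genes, and 2 (Eda2r and Tnfrsf10b) fell under it. Phlda3 passed through its level in the doxo-labelled groups, since its control mean was under 1 TPM. Genes of the lists below are called measured where they entered this test, and listed genes under the filter were left out. The test was limma on log2(TPM + 1), adjusted by Benjamini-Hochberg over all 10883 genes that entered, with 0.05 as the threshold. It called 0.00919% of these genes for doxo against control, 0.0276% for doxo-KSL0608-Se against control and 0.0276% with the doxo-labelled groups pooled. For Eda2r and Tnfrsf10b the values come from the same fit over all 25019 genes with any TPM above 0, which called 0 genes for doxo against control, 0 for doxo-KSL0608-Se against doxo and 0.004% in each of the other comparisons. An unadjusted limma p under 0.05 was reached by 5 of the 7 genes for doxo against control, 5 for doxo-KSL0608-Se against control, 5 with both pooled and 1 for doxo-KSL0608-Se against doxo, all higher. In the fit over 10883 genes, 1.19%, 2.74%, 1.53% and 3.82% of genes were higher at that level in these comparisons. In the fit over 25019 genes, used for Eda2r and Tnfrsf10b, the shares were 2.56%, 2.86%, 2.03% and 2.72%. Each gene was also tested alone by a two-sided exact permutation test, 28 tests in all over 4 comparisons. For 4 against 4 libraries its smallest p is 0.0286, and for 8 against 4 it is 0.00404.

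The receptors come first. Eda2r encodes a receptor of the tumour necrosis factor family that binds the A2 form of ectodysplasin. It stood at 0.52, 0.76, 0.78 and 0.33 TPM in doxo-KSL0608-Se libraries 1 to 4, at 0.49, 0.2, 0.36 and 0.36 TPM in doxo libraries 1 to 4 and at 0.01, 0.01, 0.07 and 0.03 TPM in control libraries 1 to 4. Every library of either doxo-labelled group lay above every control library, and the lowest doxo library was library 2. By mean TPM, Eda2r was 11.8 times as high in doxo as in control liver and 19.9 times as high in doxo-KSL0608-Se as in control liver. These ratios rest on control values within a few rounding steps of 0, since the deposited values have 2 decimals. On the log2(TPM + 1) scale the difference was 0.39 ± 0.10 (SE) for doxo against control (exact permutation p = 0.0286, limma adjusted p = 1, n = 4), and the gene ranked 42nd by p among all 25019. Between doxo-KSL0608-Se and control liver it was 0.62 ± 0.10 (exact permutation p = 0.0286, limma adjusted p = 0.223, n = 4), ranking 5th. With a pseudocount of 0.01 in place of 1 these differences were 3.36 and 4.10, with limma adjusted p of 0.350 and 0.0572.

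Tnfrsf10b encodes the death receptor of mice for the ligand TRAIL, which recruits caspases through its death domain. It stood at 0.28, 0.24, 0.39 and 0.29 TPM in doxo-KSL0608-Se libraries 1 to 4, at 0.3, 0.34, 0.27 and 0.28 TPM in doxo libraries 1 to 4 and at 0.05, 0.13, 0.06 and 0.07 TPM in control libraries 1 to 4. The doxo-labelled groups overlapped with each other and neither overlapped with control liver. Unlike Eda2r, its highest doxo value was in library 2. By mean TPM it was 3.84 times as high in doxo and 3.87 times as high in doxo-KSL0608-Se as in control liver. The log2 difference was 0.27 ± 0.04 (SE) in each comparison with control liver (exact permutation p = 0.0286 in each, n = 4; limma adjusted p = 0.466 for doxo and 0.225 for doxo-KSL0608-Se). By p it ranked 3rd of 25019 genes for doxo and 6th for doxo-KSL0608-Se against control. A pseudocount of 0.01 moved the differences to 1.89 and 1.88.

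The ligands of these receptors were low as well. Tnfsf10, which encodes TRAIL, ranged from 0.32 to 0.9 TPM in doxo-KSL0608-Se, from 0.27 to 0.66 TPM in doxo and from 0.11 to 0.62 TPM in control libraries. Eda, which encodes ectodysplasin, ranged from 0.22 to 0.6 TPM in doxo-KSL0608-Se, from 0.06 to 0.23 TPM in doxo and from 0.06 to 0.36 TPM in control libraries. For both ligands the doxo libraries overlapped with the control libraries, so the separation seen for the receptors was not seen for their ligands; the difference between receptor and ligand was not tested.

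At the mitochondrion, Bax encodes the protein that forms pores in the outer membrane. It stood at 46.8, 46.6, 37.3 and 30.9 TPM in doxo-KSL0608-Se libraries 1 to 4, at 42.1, 49.7, 33.7 and 51.8 TPM in doxo libraries 1 to 4 and at 31.6, 21.1, 26.3 and 27.8 TPM in control libraries 1 to 4. All 4 doxo libraries lay above control liver, and 3 of 4 doxo-KSL0608-Se libraries did, library 4 falling just under control library 1. The log2 difference was 0.70 ± 0.21 (SE) for doxo against control (exact permutation p = 0.0286, limma adjusted p = 1, n = 4) and the gene ranked 33rd by p among 10883. Between doxo-KSL0608-Se and control liver it was 0.57 ± 0.21 (exact permutation p = 0.0571, limma adjusted p = 0.734, n = 4). Gm45808, a gene that overlaps Bax on the same strand, reached 2.1 TPM at most; how reads shared between them were divided was not tested, so the level of Bax is uncertain to that extent.

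Bbc3 encodes PUMA, a BH3-only protein that neutralises survival proteins of the BCL2 family and so releases Bax. It stood at 9.68, 8.88, 6.2 and 9.87 TPM in doxo-KSL0608-Se libraries 1 to 4, at 10.3, 3, 11 and 5.63 TPM in doxo libraries 1 to 4 and at 5.77, 5.94, 6.38 and 8.29 TPM in control libraries 1 to 4. In doxo liver 2 libraries lay above and 2 below all control libraries, and its coefficient of variation there was 51.2%, the largest of the 7 genes in that group. The log2 difference was 0.04 ± 0.31 (SE, 95% interval -0.63 to 0.71) for doxo against control (exact permutation p = 0.971, n = 4) and 0.34 ± 0.31 (interval -0.33 to 1.01) for doxo-KSL0608-Se against control (exact permutation p = 0.0857, n = 4). These intervals do not show that Bbc3 is alike in the groups. The sign for doxo against control turned without control library 1, doxo library 1 or doxo library 3, with values of -0.01, -0.14 and -0.17.

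Survival partners of Bax were measured in the same libraries. Bcl2l1, which encodes BCL-XL, stood at 14.2 ± 1.60 TPM in doxo-KSL0608-Se, 12.3 ± 3.61 TPM in doxo and 10.4 ± 3.98 TPM in control liver, and Mcl1 stood at 19.81 ± 2.39, 13.985 ± 4.84 and 16.05 ± 3.74 TPM in the same groups (SD, n = 4). Of 13 listed BCL2 family partners, 7 were measured. Among these, 0 had an unadjusted limma p under 0.05 in any of the 4 comparisons. Among all genes tested, 1.98% had such a p for doxo and 3.40% for doxo-KSL0608-Se against control. The share was 2.16% with both pooled and 4.77% for doxo-KSL0608-Se against doxo. With 7 genes, a count of 0 lies near these shares and does not show that the partners were alike in the groups.

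In the nucleus, Aen encodes an exonuclease that is induced by p53 and adds to death after DNA damage. It stood at 11.75, 14.03, 16.35 and 12.74 TPM in doxo-KSL0608-Se libraries 1 to 4, at 13.6, 8.17, 11.2 and 11.3 TPM in doxo libraries 1 to 4 and at 5.17, 5.88, 4.89 and 6.83 TPM in control libraries 1 to 4. Even the lowest doxo library, library 2, lay above the highest control library. The log2 difference was 0.84 ± 0.19 (SE) for doxo against control (exact permutation p = 0.0286, limma adjusted p = 1, n = 4), ranking 7th by p among 10883 genes. For doxo-KSL0608-Se against control it was 1.14 ± 0.19 (exact permutation p = 0.0286, limma adjusted p = 0.0987, n = 4), ranking 5th. With the 8 doxo-labelled libraries pooled it was 0.99 ± 0.16 (limma adjusted p = 0.118), and it passed under 7 of 25 alternatives.

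Phlda3 encodes a protein made of little more than a pleckstrin homology domain, which competes with Akt for membrane lipids and so restrains Akt. It stood at 5.8, 7.4, 7.3 and 2.32 TPM in doxo-KSL0608-Se libraries 1 to 4, at 5.47, 2.84, 5.1 and 5.56 TPM in doxo libraries 1 to 4 and at 0.6, 0.5, 0.29 and 0.85 TPM in control libraries 1 to 4. The lowest doxo-labelled library, at 2.32 TPM, was above the highest control library, at 0.85 TPM. By mean TPM Phlda3 was 8.47 times as high in doxo and 10.2 times as high in doxo-KSL0608-Se as in control liver. In doxo-KSL0608-Se against control liver its log2 difference was 2.03 ± 0.29 (SE), with a limma adjusted p of 0.0418 among the filtered genes and 0.220 without the filter, which Phlda3 passed only through the groups where it is high. The median over all genes tested was 0.23 in that comparison; relative to it Phlda3 stood at 1.80, Aen at 0.91, Bax at 0.35, Perp at 0.14 and Bbc3 at 0.11. With the 8 doxo-labelled libraries pooled it was 1.94 ± 0.25, with a limma adjusted p of 0.0216 among the filtered genes and 0.127 without the filter; limma called 3 of the 10883 filtered genes, 0.0276%. For doxo against control the difference was 1.86 ± 0.29 (exact permutation p = 0.0286, limma adjusted p = 0.148, n = 4) and did not pass, though it ranked 2nd by p.

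The calls of Phlda3 lay near the threshold. Against control liver, the call in doxo-KSL0608-Se was kept without doxo library 2 or doxo-KSL0608-Se library 4 and lost without each of the other 10 libraries, with limma adjusted p between 0.00206 and 0.263. The call over the 8 libraries was kept without control library 4, doxo library 2 or doxo-KSL0608-Se library 4 and lost without each of the other 9, with limma adjusted p between 0.000812 and 0.195. The pooled difference itself stayed between 1.86 and 2.10 in those fits. In all, the call in doxo-KSL0608-Se was lost under 17 of 24 alternatives, with limma adjusted p up to 0.340. Besides the libraries left out, these included no filter (0.220), median-of-ratios scaling (0.0664), quantile normalization (0.0803), the compared groups alone (0.132), the length slope (0.0865) and both outlying libraries left out (0.0956). The pooled call was lost under 11 of 24, no filter (0.127) among them, with limma adjusted p up to 0.318. The other 2 genes called over the 8 libraries were Cdkn1a, named below, and the long noncoding RNA gene Gm45941, named after its values were seen.

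Perp encodes a membrane protein of the PMP22 family that p53 induces and that is also a part of desmosomes, the junctions that hold epithelial cells together. It stood at 45.6, 44.4, 49.0 and 46.3 TPM in doxo-KSL0608-Se libraries 1 to 4, at 44.7, 13.9, 44.9 and 33.7 TPM in doxo libraries 1 to 4 and at 25.4, 39.5, 34.3 and 46.5 TPM in control libraries 1 to 4. The groups overlapped, and the lowest value of doxo and of control liver was in the library of each that stood apart on the first component. The log2 difference was -0.18 ± 0.32 (SE, 95% interval -0.88 to 0.52) for doxo against control (exact permutation p = 0.743, n = 4) and 0.0334 without doxo library 2 and control library 1, and 0.19 without doxo library 2 alone. For doxo-KSL0608-Se against control it was 0.37 ± 0.32 (interval -0.33 to 1.07; exact permutation p = 0.114, n = 4). The desmosome list holds 14 genes of junctions and keratins, and 11 were measured, Cdh1, Ctnnb1, Krt8 and Krt18 among them. Of the 11, 0 had an unadjusted limma p under 0.05 for doxo against control liver, where 1.98% of all genes did. Dsc2, a desmosomal cadherin gene, was the only 1 of the 11 under it for doxo-KSL0608-Se against control (7.07 ± 1.06 and 4.86 ± 0.468 TPM, SD, n = 4, limma adjusted p = 0.734), where 3.40% of all genes were.

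**Figure D2:**
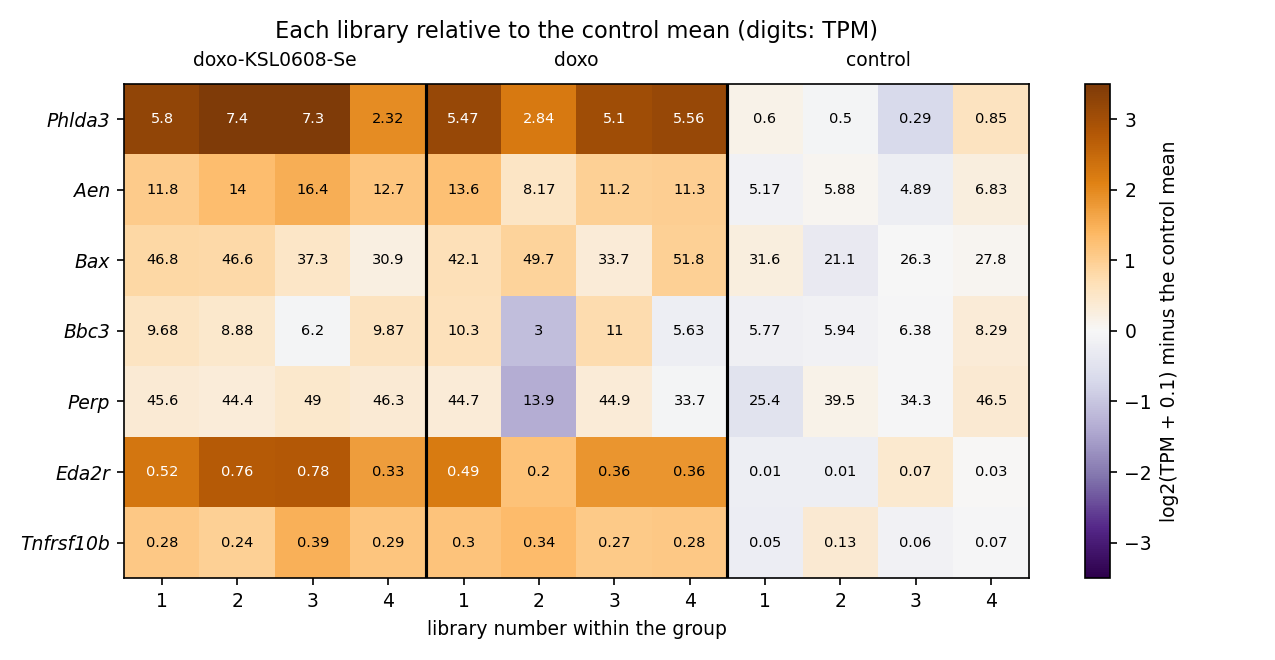
Each library (columns, grouped as doxo-KSL0608-Se, doxo and control) relative to the control mean for the 7 genes (rows); colour gives log2(TPM + 0.1) minus the mean of the control libraries and the digits give TPM. Phlda3, Aen, Bax, Eda2r and Tnfrsf10b are above the control mean in all 8 doxo-labelled libraries, and doxo library 2 is below the control mean in Bbc3 and Perp (3 and 13.9 TPM).

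The genes did not vary together within doxo liver. Library 2 held the lowest doxo value of 5 genes, Phlda3, Aen, Bbc3, Perp and Eda2r, but the highest of Tnfrsf10b and the next to highest of Bax. Its share of mitochondrially encoded transcripts was 27.6% of TPM, against 9.82% to 11.5% in the other doxo libraries. The part of this library's composition in the member values was not tested. The separations of doxo from control liver given above include this library. In doxo-KSL0608-Se liver, library 4 held the lowest value of Phlda3, Bax and Eda2r and the highest of Bbc3. The spread within a group was smallest for Perp in doxo-KSL0608-Se liver, with a coefficient of variation of 4.18%, against 42.5% in doxo liver and 24.4% in control liver.

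The comparison of doxo-KSL0608-Se with doxo liver asks whether KSL0608-Se moved these targets. For all 7 genes the groups overlapped and 0 passed the limma threshold, while 1 gene of 10883, 0.00919%, was called in that table. The median log2 difference over all genes tested was 0.30 in this comparison, and 0.0052 after median-of-ratios scaling, so differences are read beside it. Phlda3 differed by 0.17 (95% interval -0.47 to 0.80, limma adjusted p = 0.717), which is -0.13 relative to the median. A return by the full 1.86 that separates doxo from control liver lies outside that interval. That 1.86 is itself an estimate (SE 0.29) from the same doxo libraries, as are the values for Aen and Bax below. A return was therefore not tested. Aen differed by 0.30 (interval -0.11 to 0.70), equal to the median to within 0.0044, and a return by its 0.84 lies outside the interval. Bax differed by -0.13 (interval -0.59 to 0.33), which is -0.43 relative to the median. A return by its 0.70 lies outside the interval as it stands, but inside it once the median of 0.30 is taken off. Its sign turned with the length slope (0.13) and with quality weights (0.15).

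Bbc3 differed by 0.30 (interval -0.37 to 0.97) and Perp by 0.55 (interval -0.15 to 1.26), and Perp, like Phlda3, had 3 of 4 doxo-KSL0608-Se libraries above all doxo libraries. Without doxo library 2 the Perp difference was 0.18, at an unchanged sign. Tnfrsf10b differed by 0.0018 (interval -0.09 to 0.09). Eda2r was the only one of the 7 with an unadjusted limma p under 0.05, at 0.23 (interval 0.02 to 0.44, p = 0.0320, adjusted p = 0.600), with 3 of 4 doxo-KSL0608-Se libraries above every doxo library (exact permutation p = 0.171, n = 4). The difference of Eda2r stayed positive under all 23 alternatives, between 0.13 and 0.73. Its unadjusted limma p was under that level in only 10 of the 23, among them 7 of 12 fits without 1 library. Signs of Phlda3, Aen, Bbc3 and Tnfrsf10b turned negative under median-of-ratios scaling and quantile normalization, so no direction is given for them.

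**Figure D3:**
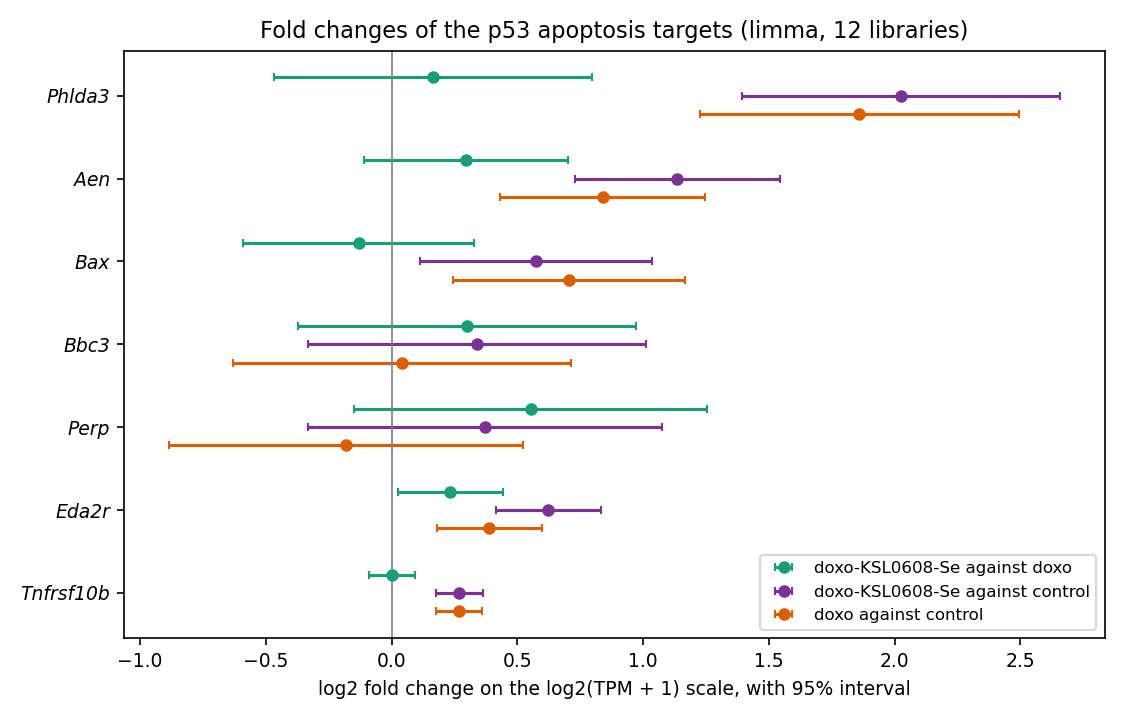
Log2 fold changes of the 7 genes on the log2(TPM + 1) scale (x axis), each point with its 95% interval from limma, for doxo-KSL0608-Se against doxo, doxo-KSL0608-Se against control and doxo against control. Intervals against control liver lie above 0 for Phlda3, Aen, Bax, Eda2r and Tnfrsf10b and include 0 for Bbc3 and Perp. Against doxo liver the interval of Eda2r (0.02 to 0.44) alone leaves out 0, a result kept under 10 of 23 alternatives.

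Other genes of the p53 pathway give the setting. Trp53, which encodes p53 itself, stood at 12.1 ± 1.27 TPM in doxo-KSL0608-Se, 10.9 ± 0.557 TPM in doxo and 10.4 ± 1.19 TPM in control liver (SD, n = 4), with a log2 difference of 0.07 ± 0.15 (SE) for doxo against control. Of 27 listed arrest and feedback targets, 16 were measured, and 0 of these passed the adjusted threshold for doxo against control. An unadjusted limma p under 0.05 was reached by 4, all higher, where 1.19% of all genes were higher at that level. They were the cell-cycle inhibitor gene Cdkn1a (22.8 ± 8.04 and 4.98 ± 3.05 TPM in doxo and control liver), the kinase gene Plk2 (log2 difference 0.61), the stress cytokine gene Gdf15 (0.65) and the cyclin gene Ccng1 (0.66). The list's median was 0.19, beside -0.08 over all genes. For doxo-KSL0608-Se against control 0 passed and 6 had an unadjusted p under 0.05, all higher, where 2.74% of all genes were. The list's median was 0.45, beside 0.23 over all genes. Mdm2, which encodes the ubiquitin ligase that p53 induces and that degrades p53, stood at 8.05 ± 1.41 TPM in doxo-KSL0608-Se, 6.78 ± 1.69 TPM in doxo and 4.65 ± 2.20 TPM in control liver (SD, n = 4), with log2 differences of 0.75 and 0.52 from control (limma adjusted p = 0.734 and 1). Cdkn1a passed with the 8 doxo-labelled libraries pooled (2.16 ± 0.32, limma adjusted p = 0.0486).

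Of 25 listed death targets outside the 7 genes, 16 were measured. Of these, 0 passed for doxo against control, where 1.98% of all genes had an unadjusted limma p under 0.05 in either direction. Such a p was reached by 2 of the 16, both higher. These were Trp53inp1, a cofactor gene of p53-dependent death, at 5.17 ± 2.17 and 2.53 ± 0.925 TPM in doxo and control liver, and Rps27l at 726 ± 117 and 537 ± 86.7 TPM (SD, n = 4). Rps27l is closely related to the ribosomal protein gene Rps27, so reads could be split between them and its level is uncertain. The list's median was -0.11, beside -0.08 over all genes. For doxo-KSL0608-Se against control 1 had an unadjusted p under 0.05, Trp53inp1 (log2 difference 1.29 ± 0.30, SE, limma adjusted p = 0.684), where 3.40% of all genes did. The list's median was 0.36, beside 0.23 over all genes.

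Downstream of Bax, 1 of 16 measured genes of the mitochondrial caspase pathway had an unadjusted limma p under 0.05 for doxo against control, beside 1.98% of all genes. It was Endog, which encodes a mitochondrial endonuclease, at 63.8 ± 8.73 and 42.8 ± 2.18 TPM in doxo and control liver (log2 difference 0.56 ± 0.17, SE, limma adjusted p = 1, n = 4). Its doxo libraries lay above all control libraries, as did those of 75 of the 10883 genes tested. In doxo-KSL0608-Se liver Endog stood at 64.0 ± 7.70 TPM (log2 difference 0.56 against control, limma adjusted p = 0.734). In that comparison 3 of the 16, Endog among them, were higher throughout, beside 398 of the 10883 genes tested. There 2 of the 16 had an unadjusted p under 0.05, beside 3.40% of all genes, the second being Birc3, a caspase inhibitor family gene, at 6.11 ± 1.58 and 4.07 ± 1.07 TPM in doxo-KSL0608-Se and control liver (log2 difference 0.49 ± 0.22, limma adjusted p = 0.734). The caspase pathway list had a median of -0.06 for doxo against control, beside -0.08 over all genes. Of 15 measured genes of Akt signalling, on which Phlda3 acts, 0 had an unadjusted p under 0.05 for doxo or doxo-KSL0608-Se against control. Likewise 0 of 16 measured genes in the list of p53 and its upstream regulators, which includes Trp53, did so for doxo against control. In the list labelled ligands and decoys of the death receptors, which holds ligands, other receptors and signalling partners, 0 of 13 measured genes did. Those 13 hold no ligand, since the listed ligands fell under the filter and were not tested. In doxo-KSL0608-Se against control liver these lists held 1 each, Hipk2 and Tnfrsf19.

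For doxo-KSL0608-Se against doxo liver, 1 of the 16 arrest and feedback targets had an unadjusted limma p under 0.05, Sesn2 (2.79 ± 0.813 and 1.76 ± 0.396 TPM), which encodes a stress-induced inhibitor of growth signalling. The list of p53 and its upstream regulators held 2, Daxx (log2 difference 0.54) and Hipk2 (0.52), and the desmosome list 1, Dsc2 (0.46). By adjusted p, 0 of these passed. Among all genes 3.82% were higher at that level. The medians of the 8 lists lay between 0.26 and 0.50, beside 0.30 over all genes.

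**Figure D4:**
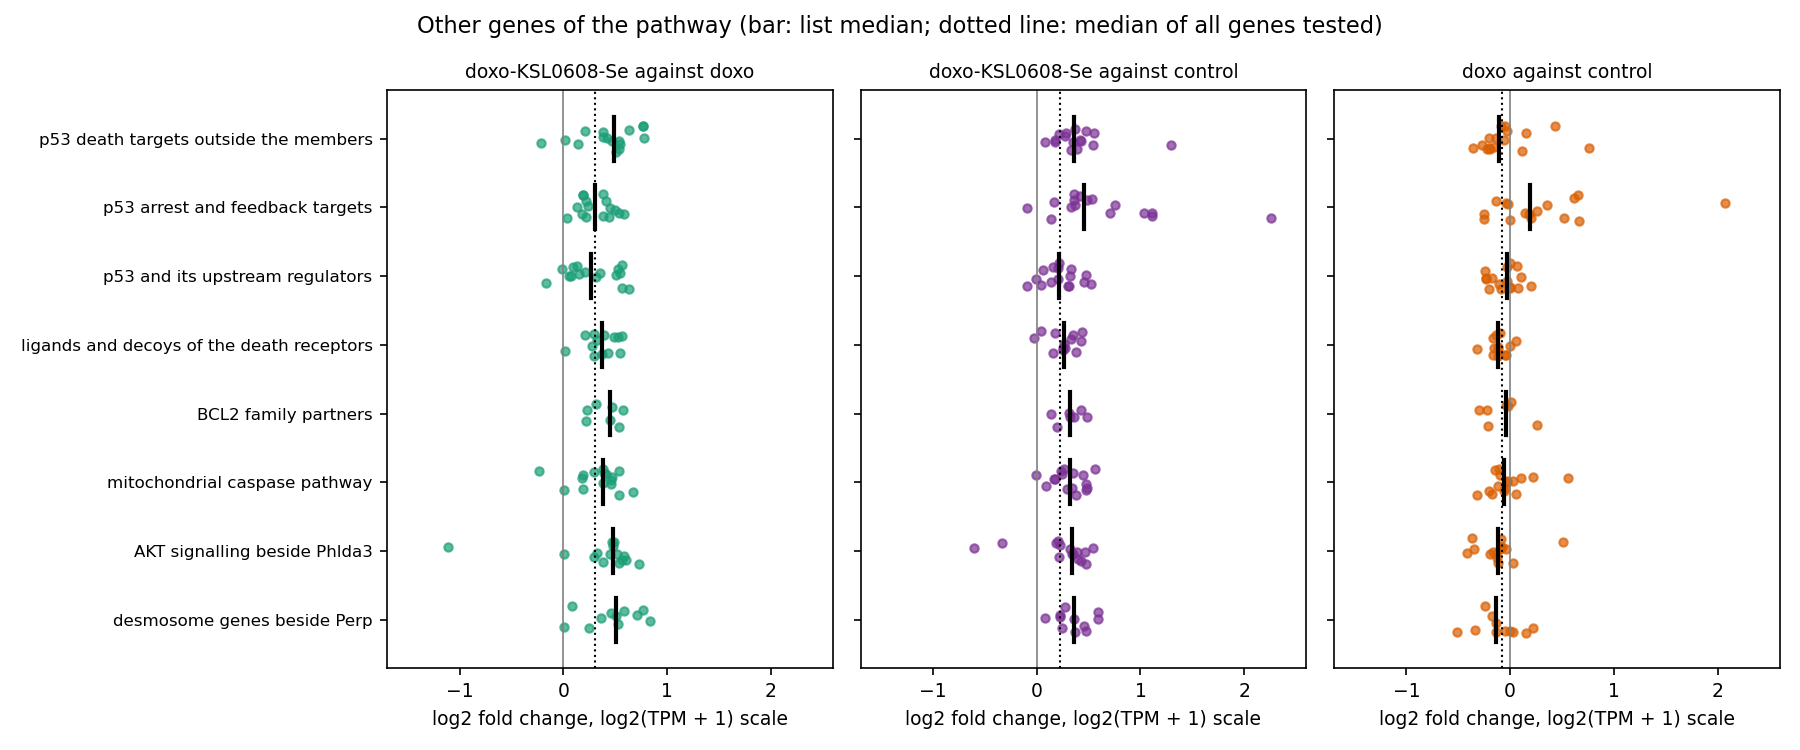
Log2 fold changes (x axis, log2(TPM + 1) scale) of the measured genes in 8 pathway lists (rows) for 3 comparisons (panels); each point is a gene, the bar is the list's median and the dotted line the median of all genes tested. Against control liver the point farthest to the right is Cdkn1a of the arrest and feedback list (2.26 in doxo-KSL0608-Se and 2.07 in doxo liver), followed by Trp53inp1 of the death targets (1.29 and 0.76).

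Genes whose pattern over the 12 libraries was most like a member's were found by Pearson's r of log2(TPM + 1), among 9742 genes with an established symbol. These values are descriptions chosen for being high, and libraries share group and composition, so no p is given. Most like Phlda3 were Mgmt, a DNA repair gene (r = 0.952), Atp8b5 (r = 0.934) and Aen itself (r = 0.934). Most like Aen were Rnf215 (r = 0.973), Atp8b5 (r = 0.940) and Cdkn1a (r = 0.940). Bax was most like Gsta1, a glutathione S-transferase gene (r = 0.854), Rps27l (r = 0.841) and Shkbp1 (r = 0.822). Bbc3 was most like Set (r = 0.928), Mn1 (r = 0.927) and Scoc (r = 0.908). Perp was most like Ppa2 (r = 0.995), Tdo2 (r = 0.993) and Aifm1 (r = 0.991), which averaged lower in doxo than in doxo-KSL0608-Se liver, as Perp did. Perp was lowest in doxo library 2 and control library 1, which stood apart on the first component. By Spearman's rho these likenesses were 0.944, 0.909 and 0.909. Over all pairs named here rho lay between 0.713 (Bax with Gsta1) and 0.958 (Aen with Rnf215). Mgmt, for example, averaged 8.74 TPM in doxo-KSL0608-Se, 7.71 TPM in doxo and 4.75 TPM in control liver.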

How the data were processed

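Per the submitters' processing notes, the authors used fastp, HISAT and RSEM, with versions, genome build, annotation and strand setting not given in the sources used here. The authors deposited TPM, rounded to 2 decimals, which keeps no depth, so values carry no counting interval. Another deposited column, the gene length in bases, served only for a covariate. The authors' group means in TPM equal the means of the libraries and were not used.

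Values were analysed as log2(TPM + 1), which understates the change of low genes, with limma 3.58.1 in R 4.3.3 (group as the only term, all 12 libraries, intensity trend), in genes with a mean of at least 1 TPM. Tests were two-sided, and intervals are 95% intervals. Permutation tests enumerated 70 or 495 divisions of the libraries. Members and gene lists were chosen with earlier results of these data known. No p was adjusted over the members or a list alone. The 7 genes are named throughout. Up to 4 genes of smallest p are named per list and comparison, with Trp53, Mdm2, Cdkn1a, Eda and Tnfsf10, and 3 genes most like each member that entered the test. Bcl2l1, Mcl1, Gm45808 and marker genes were added after their values were seen. The fit was tested on simulated data. Same-numbered libraries did not deviate together. Figures used matplotlib 3.10.9 in Python 3.11.15.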

Additional observations from a re-analysis of the deposited data

Results flagged for a closer look

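Of 21 sets of 4 libraries (7 genes in 3 groups), 1 held a library far from the others. Phlda3 in doxo liver stood at 2.84 TPM in library 2 and between 5.1 and 5.56 TPM in the other 3 libraries. The gap of library 2 to its nearest neighbour was 0.831 of the group's range, just over Dixon's limit for 4 values. Chance alone flags about 1 in 20 such sets. Without this library the log2 difference of Phlda3 between doxo and control liver was 2.04, against 1.86 with it.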

How the results depend on the processing

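Aen, Bax, Bbc3 and Perp were refitted under 25 alternatives, Phlda3 under 24 and Eda2r and Tnfrsf10b under 23, since these 3 lie under the stricter filter and the receptors were fitted without a filter throughout, which gave 680 values. Of these, 602 kept their sign and side of the threshold, 28 lost a call, 21 gained one and 29 changed sign, and the cause was not tested. Every lost call was of Phlda3. All alternatives gave a positive difference from control liver for Phlda3, Aen, Bax, Eda2r and Tnfrsf10b, in doxo, doxo-KSL0608-Se and both together. For doxo against control, Perp turned to 0.0334 without control library 1 and doxo library 2 and to 0.22 with quality weights; without each library Perp ranged from -0.35 to 0.19 and Bbc3 from -0.17 to 0.36. With the 8 doxo-labelled libraries, Perp ranged from -0.0621 to 0.28 without each library.

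For doxo-KSL0608-Se against doxo, median-of-ratios scaling gave -0.12 for Phlda3, -0.0421 for Aen, -0.0053 for Bbc3 and -0.10 for Tnfrsf10b, and quantile normalization gave -0.12, -0.0204, -0.0053 and -0.0124 for the same genes. Tnfrsf10b was -0.00081 and -0.0045 with pseudocounts of 0.1 and 0.01, -0.0543 with a total without the 50 most abundant and mitochondrial genes, and -0.0150 with the length slope. The length slope gave 0.13 and quality weights gave 0.15 for Bax, and weights gave -0.30 for Bbc3. Without both outlying libraries Phlda3 was -0.0170 and Bbc3 -0.0190. Without each library Phlda3 ranged from -0.0170 to 0.47, Bbc3 from -0.0190 to 0.51 and Tnfrsf10b from -0.0308 to 0.0241.

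Over all genes, limma called 1 gene for doxo against control, 1 for doxo-KSL0608-Se against doxo, 3 for doxo-KSL0608-Se against control and 3 for both groups against control. With quality weights these counts were 74, 77, 29 and 33, and without a filter 0, 0, 1 and 1. With the replicate block they were 0, 0, 1 and 1, and the adjusted p of Phlda3 against control was 0.340 for doxo-KSL0608-Se and 0.318 for both groups; the numbers do not pair the libraries, since 2 of 12 same-numbered pairs had deviations correlated over 0.1, and 2 of 12 libraries correlated best with their own number. For doxo against control the count was 2 with pseudocounts of 0.1 and 0.01, quantile normalization or the length slope, 3 with median-of-ratios scaling or the reduced total, and 0 with the compared groups alone. For doxo-KSL0608-Se against doxo it was 2 with the compared groups alone and 0 with a pseudocount of 0.01, any other scaling, the length slope or without both outlying libraries. For doxo-KSL0608-Se against control it was 5 with the reduced total and 1 with the compared groups alone. For both groups against control it was 6 with median-of-ratios scaling or without both outlying libraries and 5 with the length slope. Without each library the counts ranged from 0 to 2, 0 to 1, 1 to 5 and 1 to 5 in the order above.

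Depth is unknown, which limits Eda2r and Tnfrsf10b most, since both lie under 1 TPM and their fold changes depend on the pseudocount.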
